A study of Mus musculus with 4 samples.

Results

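Bile, drug and lipid transporters were followed in liver cells sorted for the surface protein CD24 from mice given carbon tetrachloride (CCL4) or a cocktail of small molecules (HACY). Members were rows named Slc10a, Slc22a, Slc27a, Slc47a, Slco, Abca, Abcb, Abcc, Abcd or Abcg with a number, and with 10 or more raw counts in at least 2 of 4 libraries. Of 21878 rows in each table, 100 had such a name and 67 met the count rule. These were 23 uptake carriers (5 Slc10, 12 Slc22 and 6 Slco genes), 38 ABC genes, 5 Slc27 genes and Slc47a1.

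Hepatocytes take bile acids, drugs and other organic ions from blood through carriers of the Slc10, Slco and Slc22 families on the sinusoidal membrane. ATP-driven ABC pumps then export bile acids, phospholipid, sterols and conjugated drugs, some into the bile canaliculus and some back to blood. Other ABC proteins load cholesterol onto lipoproteins or serve mitochondria, peroxisomes and lysosomes, and Slc27 proteins activate fatty acids or bile acids with coenzyme A.

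All mice were C57BL/6, and the cells of every library were collected on magnetic columns (MACS) by CD24, a marker of liver progenitor cells that neutrophils and B cells also carry. Mice were 8 weeks old at injection (the age label reads 6 to 8 weeks). The CCL4 group received the liver toxin carbon tetrachloride in olive oil over 6 weeks, with 2 injections of 2 ml/kg each week. The HACY group received Y-27632, A-83-01 and CHIR99021, inhibitors of a kinase of the cytoskeleton, of TGF-beta type I receptors and of glycogen synthase kinase, 3 times a week for 6 weeks, and the labels leave unclear whether these mice were also given the toxin. Each group had 2 libraries, whose counts summed to 18467299 to 19314219, and there was no untreated or vehicle group, so "higher" and "lower" are always HACY relative to CCL4. Nothing in the labels ties the replicates to different animals, so each p-value reflects the spread among these libraries, which may be technical. The labels call the cells both hepatocytes and liver progenitor cells.

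Slc10a1 and Slco3a1 rose among 9 bile acid and organic anion carriers, and Abcc2 fell among 8 canalicular pumps. Rises also included Slc22a27, the ligases Slc27a2 and Slc27a5, the lipid exporters Abca1 and Abcg1, and Abcc5 and Abcg3. Of the 67 members, 9 were higher and 1 was lower at an edgeR adjusted p below 0.05, against 8.19% and 3.54% of the 13428 genes tested. Uptake carriers had 3 higher and 0 lower among 23, and ABC genes had 4 higher and 1 lower among 38, a called share of 13.0% and 13.2% against 11.7% of all genes. The share called was thus near the background in both classes. The median log2 fold change was 0.37 for uptake carriers, 0.05 for ABC genes and -0.01 for all genes, and 16 of 23 uptake carriers and 22 of 38 ABC genes had a positive value, against 49.1% of all genes. At an unadjusted p below 0.05, uptake carriers had 8 positive and 1 negative value and ABC genes 6 and 5, against 2223 and 1825 of the 13428 genes. Groups did not overlap for 39 of 67 members, against 60.8% of all genes. HACY lay above in 27 (30.7% of all genes) and below in 12 (30.1% of all genes). These counts and medians describe the 2 classes, and the difference between the classes was not tested.

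Scaling and single libraries bore on the counts. By library size alone all genes shifted to a median of -0.18, 856 genes were higher and 1355 lower instead of 1100 and 476, and 6 members were higher and 4 lower. Relative to all genes under that scaling the medians were 0.38 for uptake carriers and 0.06 for ABC genes, as in the main test. The uptake median was 0.23 without CCL4 replicate 1, and with 1 library left out the ABC median ran from -0.00016 to 0.16. Within groups the median log2(CPM + 1) of uptake carriers had an SD of 0.31. Leaving out HACY replicate 1 gave 3 higher and 0 lower members, HACY replicate 2 gave 6 and 0, CCL4 replicate 1 gave 9 and 1, and CCL4 replicate 2 gave 12 and 4. The called share of all genes moved alongside, from 8.19% higher to 3.85% without HACY replicate 1 and 13.4% without CCL4 replicate 2.

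**Figure D1:**
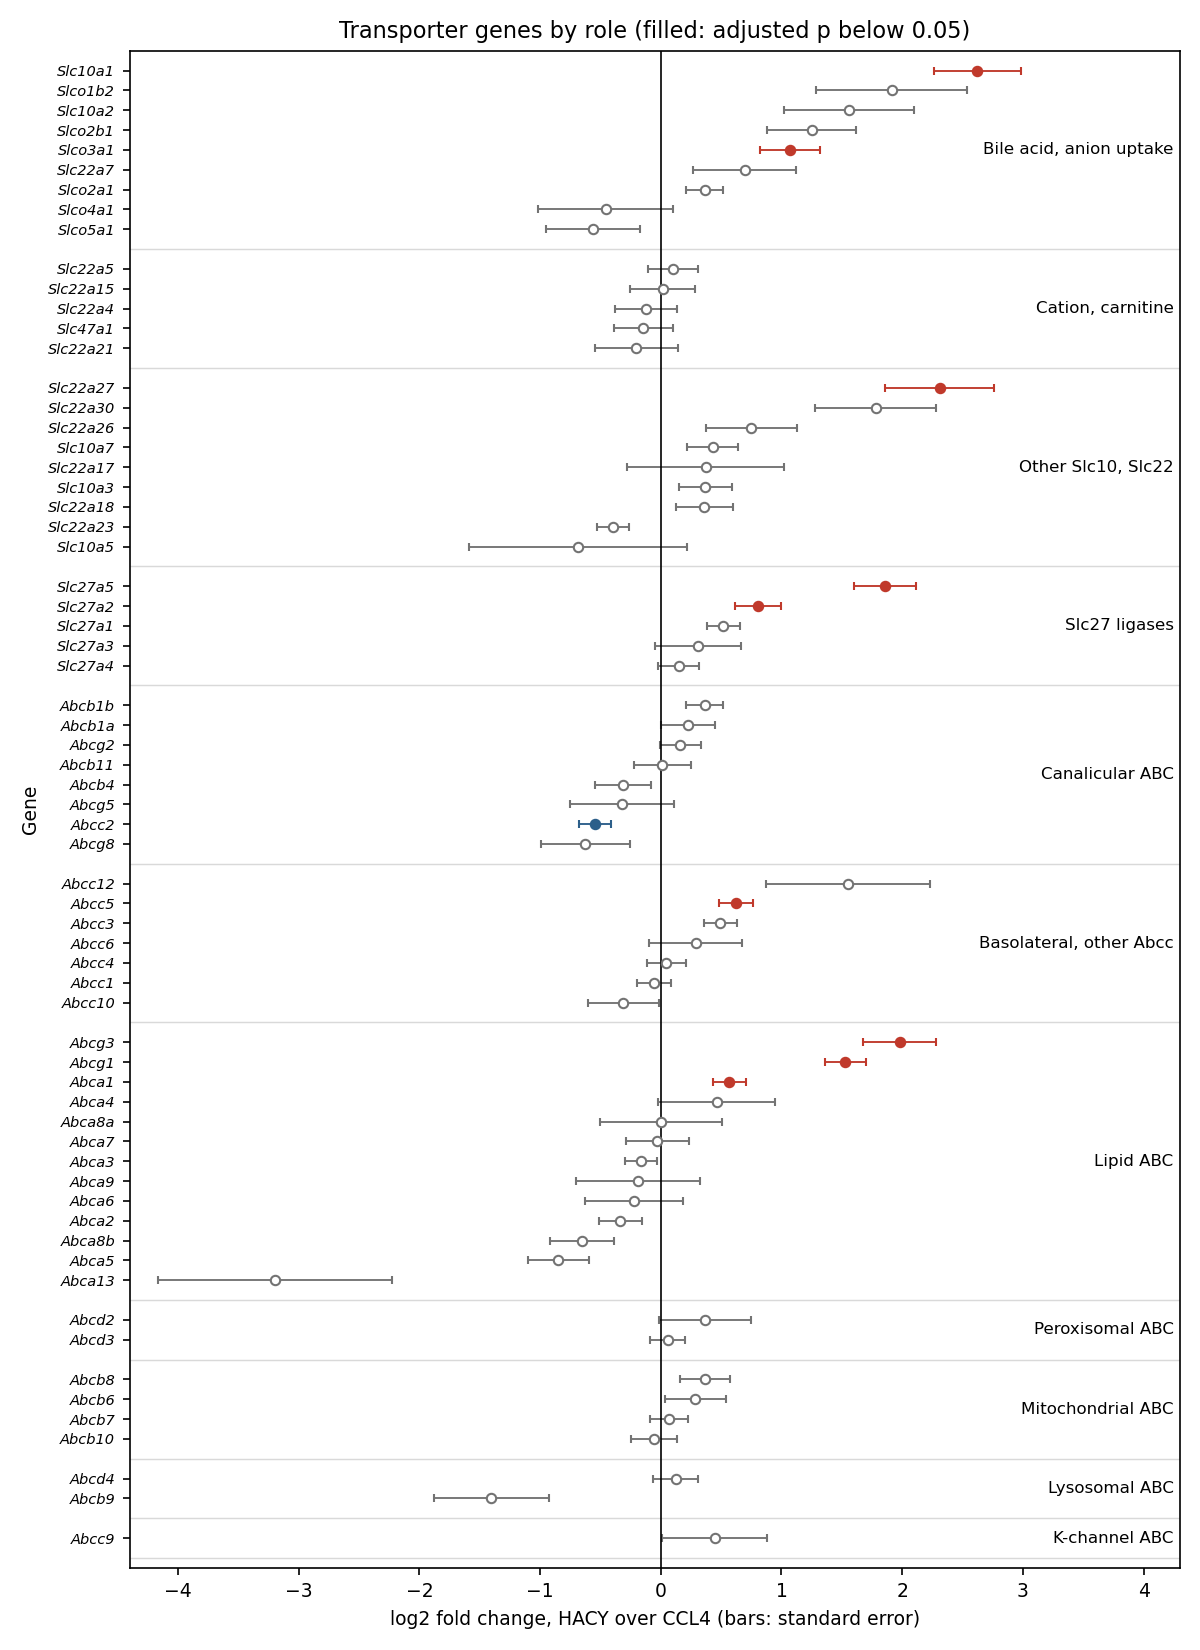
Log2 fold change (HACY over CCL4) of single transporter genes with the standard error, grouped by role, with filled points for an edgeR adjusted p below 0.05. The bile acid and anion uptake genes lie mostly right of 0, up to 2.62 for Slc10a1, while the canalicular pumps straddle 0.

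Slc10a1, the sodium-dependent carrier that takes conjugated bile acids from portal blood into hepatocytes (chromosome 12, 80953185 to 80968705, GRCm38), had 6.66 and 6.92 CPM (counts relative to library depth, TMM-scaled) in the HACY libraries. The CCL4 libraries had 0.910 and 1.28 CPM. Both HACY libraries stood well above both CCL4 libraries, a 6.16-fold difference (log2 2.62, SE 0.36, edgeR adjusted p = 0.00605). The call held without each library in turn and in every other setting tried, though on the log2(FPKM + 1) scale, which understates changes of low genes, the value was 1.19. In these bulk libraries, fewer cells of a type and less RNA per cell cannot be told apart.

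Of the 7 other bile acid and organic anion carriers apart from Slco3a1, none passed the threshold, and 5 had positive and 2 negative values. Slco1b2, the main organic anion carrier of mouse hepatocytes, had 1.80 and 1.25 CPM in HACY and 0.607 and 0.197 in CCL4 (log2 1.91, SE 0.63, edgeR adjusted p = 0.0919), and leaving out 1 library gave 1.32 to 2.91. Slco2b1, which carries steroid sulfates and drugs, had 3.55 and 3.35 CPM against 1.47 and 1.43 (log2 1.25, SE 0.37, edgeR adjusted p = 0.0717). Slc10a2, the bile acid carrier of ileum and bile duct cells, had 0.928 and 1.31 CPM against 0.354 and 0.394 (log2 1.56, edgeR adjusted p = 0.106), and it met the count rule through the HACY libraries alone. An antisense gene overlaps 7.91% of the exonic bases of Slco2b1. The groups were apart for each of these genes, but at counts of 4 to 65 per library. Slc22a7, a hepatic organic anion carrier, had 2.29 and 2.33 CPM in HACY and 1.77 and 1.08 in CCL4 (log2 0.69, adjusted p = 0.323).

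Slco3a1, a widely expressed organic anion carrier, had 37.5 and 23.7 CPM in HACY and 13.6 and 15.6 in CCL4. It was 2.10-fold higher (log2 1.07, SE 0.25, edgeR adjusted p = 0.0365), with HACY replicate 1 well above HACY replicate 2. Leaving out HACY replicate 1 gave 0.70 (adjusted p = 0.285), leaving out CCL4 replicate 1 gave 0.98 (0.0900), and limma-voom (adjusted p = 0.0543) and FPKM (0.58, adjusted p = 0.132) also ended the call. Slco2a1, the prostaglandin carrier, was the most abundant uptake carrier per length, at 18.5 and 18.1 FPKM in HACY and 13.3 and 17.5 in CCL4. Its log2 fold change was 0.36 (edgeR adjusted p = 0.160), and it passed the threshold without CCL4 replicate 2 (0.57, adjusted p = 0.0176). Slco4a1 (-0.46, adjusted p = 0.630) and Slco5a1 (-0.56, adjusted p = 0.378) had negative values. In all, 2 of the 9 listed bile acid and anion carriers rose, none fell, and 7 had a positive value, with a median of 1.07. These 7 include Slc10a2, which met the count rule through the HACY libraries alone, so the rule favoured its sign.

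Beside these carriers, hepatocyte markers were higher in HACY: 10 of 12 tested rose and none fell, with a median of 1.54 and a summed level of 29252 and 36664 CPM in HACY against 8784 and 7412 in CCL4. Albumin itself, Alb, had 9262 and 11353 FPKM in HACY and 2882 and 2368 in CCL4. Slc10a1 per 1000 FPKM of Alb was 0.248 and 0.185 in HACY and 0.106 and 0.213 in CCL4, so on this ratio, chosen after the values were seen, the groups overlapped. The part of the hepatocyte markers in the transporter values was not tested further.

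The RefSeq promoter table held 48 of the 67 members. The 250 bases before the start of 4 genes are given as examples of the calls made: the highest riser of the uptake carriers, a Slc27 ligase that rose, a sterol exporter that rose and the pump that fell. Capitals mark matches on either strand to 4 motifs. TATAAA is the core promoter box that sets a start site, and GGGCGG is the site of Sp-family factors, called the GC box. AGGTCA is the core site of nuclear receptors. The variant core CGGTCA is present in the Abca1 promoter element known to bind the sterol receptor LXR. For Abca1 the table gives a start inside the gene as located here, so 93 bases of its window lie within the gene. CGGTCA was chosen with the Abca1 sequence in view, and no matches overlapped in these windows.
Slc10a1 (GRCm38.p6, chr12:80968706-80968955, minus strand): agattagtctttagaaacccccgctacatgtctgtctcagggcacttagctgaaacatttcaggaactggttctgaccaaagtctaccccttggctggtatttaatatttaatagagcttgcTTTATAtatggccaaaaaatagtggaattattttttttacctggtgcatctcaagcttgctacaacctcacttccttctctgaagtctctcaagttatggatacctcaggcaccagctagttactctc
Slc27a2 (GRCm38.p6, chr2:126552774-126553023, plus strand): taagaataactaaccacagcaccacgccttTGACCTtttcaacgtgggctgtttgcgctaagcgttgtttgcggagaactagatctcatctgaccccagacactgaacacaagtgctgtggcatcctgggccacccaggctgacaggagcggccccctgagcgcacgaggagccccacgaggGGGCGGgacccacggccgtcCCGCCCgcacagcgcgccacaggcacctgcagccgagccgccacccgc
Abca1 (GRCm38.p6, chr4:53159896-53160145, minus strand): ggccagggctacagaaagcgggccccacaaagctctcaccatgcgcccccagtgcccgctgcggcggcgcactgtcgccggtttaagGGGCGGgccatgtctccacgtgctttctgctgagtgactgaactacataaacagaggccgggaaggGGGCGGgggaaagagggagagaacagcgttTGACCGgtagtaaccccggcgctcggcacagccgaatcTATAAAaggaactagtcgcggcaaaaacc
Abcc2 (GRCm38.p6, chr19:43782058-43782307, plus strand): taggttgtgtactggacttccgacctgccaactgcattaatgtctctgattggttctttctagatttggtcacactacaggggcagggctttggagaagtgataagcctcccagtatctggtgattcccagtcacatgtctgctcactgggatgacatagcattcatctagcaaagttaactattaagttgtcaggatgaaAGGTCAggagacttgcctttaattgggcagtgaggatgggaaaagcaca

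Of the 32851 starts in the table, 12.4% held TATAAA, 32.7% held GGGCGG, 4.36% held CGGTCA and 4607 held AGGTCA. Of the 60 starts of the members, 13.3% held TATAAA, 27 held GGGCGG, 8.33% held CGGTCA and 12 held AGGTCA. In Abca1 the variant core lay on the other strand 67 bases before the start and the TATAAA match 29 bases before it, with GC boxes 163 and 97 bases before it. In Abcc2 the single match was AGGTCA, 49 bases before the start. In Slc10a1 it was a TATAAA match on the other strand, 128 bases before the start. A match describes these letters and does not show that a factor binds there.

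Organic cation and carnitine carriers did not pass the test in either direction. Among the 6 measured, 0 were called, 0 had an unadjusted p below 0.05 by edgeR, 0 were called by DESeq2, and the median was -0.06. Slc22a5, the carnitine carrier, had 13.3 and 14.9 CPM in HACY and 12.4 and 13.8 in CCL4 (log2 0.10, SE 0.21, edgeR adjusted p = 0.780), and its sign turned by library size alone (-0.07). Slc22a4, the ergothioneine carrier, had 7.05 and 7.38 CPM against 8.70 and 6.999 (log2 -0.12, adjusted p = 0.793). The groups overlapped for both. Of the distinct 50-base stretches of Slc22a5 transcripts, 26.1% occur in transcripts of Slc22a21, so some of its reads could be placed in either. Slc47a1, which exports cations into bile in exchange for protons, had 8.08 and 7.55 CPM in HACY and 9.05 and 8.23 in CCL4 (log2 -0.14, adjusted p = 0.735).

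Among the remaining Slc22 and Slc10 genes, those on chromosome 19 were higher in value. Slc22a27, a relative of the organic anion carriers (chromosome 19, 7864388 to 7966517), had 3.77 and 2.72 CPM in HACY and 0.758 and 0.542 in CCL4, 4.96-fold higher (log2 2.31, SE 0.45, edgeR adjusted p = 0.0216). Without HACY replicate 1 its value was 2.05 (adjusted p = 0.158), and on the log2(FPKM + 1) scale it was 0.70 (adjusted p = 0.050034). Slc22a30 (log2 1.78, adjusted p = 0.0625) and the neighbouring Slc22a26 (0.75, adjusted p = 0.229) also had non-overlapping groups. Counts of these genes are uncertain, since 29.9% of the distinct 50-base stretches of Slc22a27 transcripts occur in transcripts of other genes, 25.3% in Slc22a29, and 34.2% of those of Slc22a30 do, mostly in Slc22a28. Slc22a23, named for its high level, went the other way, with 70.5 and 75.5 CPM in HACY and 102 and 89.6 in CCL4 (log2 -0.40, SE 0.13, edgeR adjusted p = 0.0982). It passed the threshold without CCL4 replicate 2 (-0.49, adjusted p = 0.0317) and by library size alone (-0.57, adjusted p = 0.0338). Slc10a7 had 0.43 (adjusted p = 0.228) and Slc22a18 had 0.36 (adjusted p = 0.345).

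**Figure D2:**
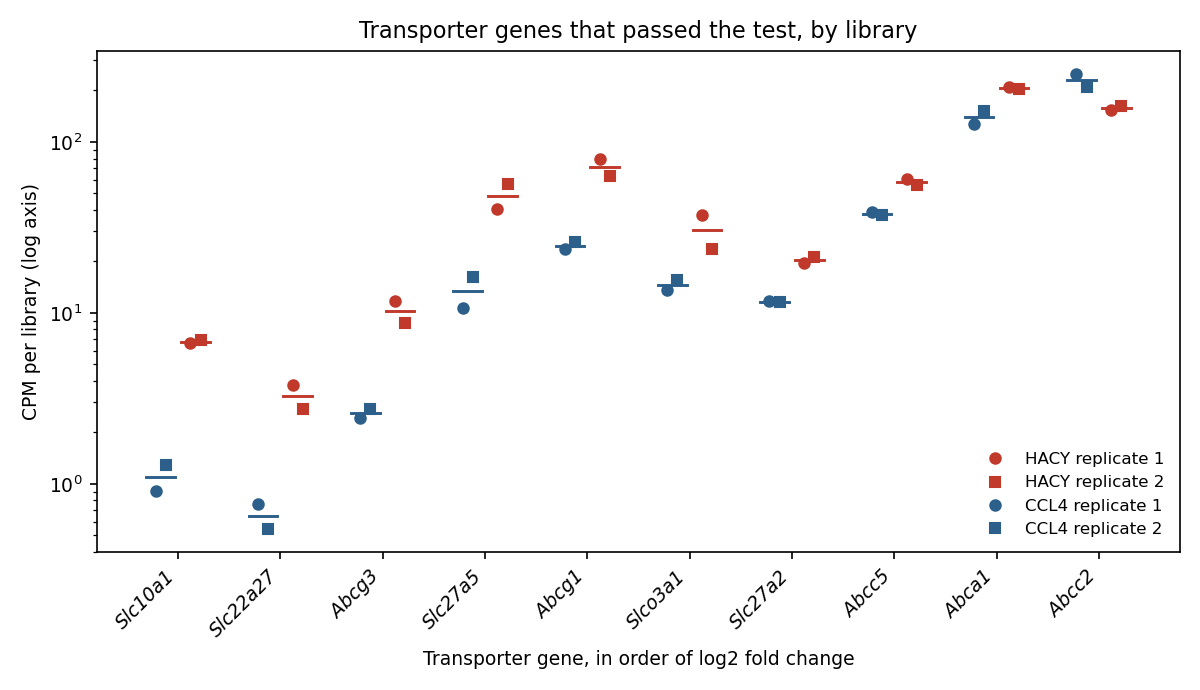
CPM of the 10 transporter genes that passed the edgeR threshold, on a log axis, with a point for each library and a bar for each group's mean. In 9 genes both HACY libraries lie above both CCL4 libraries, and in Abcc2 both lie below.

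The Slc27 genes, which activate fatty or bile acids, all had positive values. Slc27a5, the ligase that couples recycled bile acids to coenzyme A in hepatocytes (chromosome 7, 12988346 to 12998192), had 40.7 and 56.4 CPM in HACY and 10.6 and 16.2 in CCL4. The groups were far apart, 3.62-fold (log2 1.86, SE 0.26, edgeR adjusted p = 0.00651), and the call held without each library in turn, with values of 1.59 to 2.19. Per length it reached 16.4 and 22.4 FPKM in HACY, against 4.63 and 7.05 in CCL4. Slc27a2, which activates very long-chain fatty acids, had 19.5 and 21.3 CPM against 11.7 and 11.6 (log2 0.81, SE 0.19, edgeR adjusted p = 0.0377). Its replicates were close, but the call ended on leaving out HACY replicate 1 (0.87, adjusted p = 0.180), HACY replicate 2 (0.74, 0.259) or CCL4 replicate 1 (0.81, 0.0537) and by library size alone (0.64, 0.0599). A long non-coding gene on the opposite strand overlaps 11.2% of its exonic bases, and without a stated strand setting reads of the pair cannot be told apart. Slc27a1, the form of muscle and fat, had 72.1 and 68.3 CPM against 51.7 and 46.2 (log2 0.52, SE 0.14, edgeR adjusted p = 0.0517) and passed the threshold without CCL4 replicate 1 (0.60, adjusted p = 0.0404), by DESeq2 (adjusted p = 0.0457) and with no filter (0.0434). Slc27a4, a broadly expressed form, had 0.15 (adjusted p = 0.601). In total 2 of 5 rose and none fell, with a median of 0.52.

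The pumps of the canalicular membrane had values of both signs. Of 8 measured, none rose and 1 fell, 4 had a positive value, and the median was -0.15. Abcc2, which exports bilirubin glucuronide and glutathione conjugates (chromosome 19, 43782308 to 43838332), had 153 and 163 CPM in HACY and 251 and 209 in CCL4. Both HACY libraries were lower, 1.46-fold (log2 -0.54, SE 0.13, edgeR adjusted p = 0.0428). The call ended on leaving out HACY replicate 1 (-0.51, adjusted p = 0.260), HACY replicate 2 (-0.59, 0.171) or CCL4 replicate 1 (-0.41, 0.0728).

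Abcb11, the bile salt export pump, had 15.6 and 19.6 CPM in HACY and 20.3 and 14.7 in CCL4. The groups overlapped (log2 0.01, SE 0.23, edgeR adjusted p = 0.980), and its sign turned by library size alone (-0.16) and on FPKM (-0.04). Abcb4, which flips phosphatidylcholine into bile, had 10.8 and 12.6 CPM in HACY and 16.5 and 12.7 in CCL4 (log2 -0.32, adjusted p = 0.404). The sterol exporters Abcg5 and Abcg8, which lie head to head on chromosome 17, had at most 3.35 CPM in any library, with log2 values of -0.32 and -0.63 (adjusted p = 0.663 and 0.302). Abcg2, a pump of drugs and urate, had 0.16 (adjusted p = 0.568), and its sign turned by library size alone (-0.01).

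The multidrug pumps Abcb1a and Abcb1b had 71.0 and 101 CPM, and 140 and 156 CPM, in HACY, against 86.6 and 60.4, and 129 and 100, in CCL4. Their log2 fold changes were 0.22 (edgeR adjusted p = 0.550) and 0.36 (adjusted p = 0.166). Abcb1b passed the threshold without CCL4 replicate 1 (0.56, adjusted p = 0.0435). The pair share 16.3% of the 50-base stretches of Abcb1a, so a small part of their reads could be placed in either.

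Among pumps of the basolateral membrane and other Abcc genes, 1 of 7 rose and none fell, with a median of 0.29. Abcc5, a pump of cyclic nucleotides and nucleotide analogues (chromosome 16, 20331303 to 20426428), had 60.9 and 56.3 CPM in HACY and 38.8 and 37.3 in CCL4 (log2 0.62, SE 0.14, edgeR adjusted p = 0.0326). The call ended on leaving out HACY replicate 1 (0.56, adjusted p = 0.274), HACY replicate 2 (0.68, 0.152), by library size alone (0.45, 0.0727) and on FPKM (0.37, 0.122). Abcc3, which returns glucuronides and bile acids from hepatocytes to blood, had 231 and 264 CPM in HACY and 188 and 163 in CCL4 (log2 0.49, SE 0.13, edgeR adjusted p = 0.0569). The groups were apart, and it passed the threshold by DESeq2 (0.49, adjusted p = 0.0338), with no filter (0.49, 0.0400) and without CCL4 replicate 1 (0.60, 0.0447). Abcc4 (0.05, adjusted p = 0.878) and Abcc1 (-0.05, adjusted p = 0.832), pumps of cyclic nucleotides and of glutathione conjugates, had overlapping groups. The sign of Abcc4 turned by library size alone (-0.12) and on FPKM (-0.07). Abcc12 had 0.928 and 2.61 CPM against 0.354 and 0.838 (log2 1.55, adjusted p = 0.175).

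Per transcript length Abcc3 and Abcc2 had the highest mean FPKM over the 4 libraries, but not in each library. Abcc3 was first in both HACY libraries, where Abcc2 was the fourth, and Abcc2 was first in both CCL4 libraries, where Abcc3 was the second and the third. Abcc3 was at 32.5 and 36.5 FPKM in HACY and 27.7 and 23.6 in CCL4, while Abcc2 was at 19.3 and 20.1 in HACY and 33.2 and 28.8 in CCL4. The ratio of Abcc2 to Abcc3 was 0.572 ± 0.0294 in HACY and 1.21 ± 0.0112 in CCL4 (SD, n = 2; two-sided exact permutation test, p = 0.333, which is the minimum for 2 libraries a group). This ratio was chosen after the values were seen. Next in mean level came Abcb1b, Abcc1, Abcd3, Slco2a1 and Slc27a4 at 25.0, 22.5, 18.4, 16.9 and 15.9 FPKM, and neighbours in this order, including Abcb1b against Abcc1, overlapped between libraries. Abcb11 was at 1.79 to 2.71 FPKM and Slc10a1 at 0.306 to 2.30 FPKM. Uptake carriers summed to 74.0 and 78.6 FPKM in HACY and 67.9 and 69.8 in CCL4, and ABC genes to 237 and 246 against 236 and 230. Uptake carriers thus stood at 31.2% and 31.9% of the ABC sum in HACY and 28.8% and 30.4% in CCL4, values that lie close together.

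**Figure D3:**
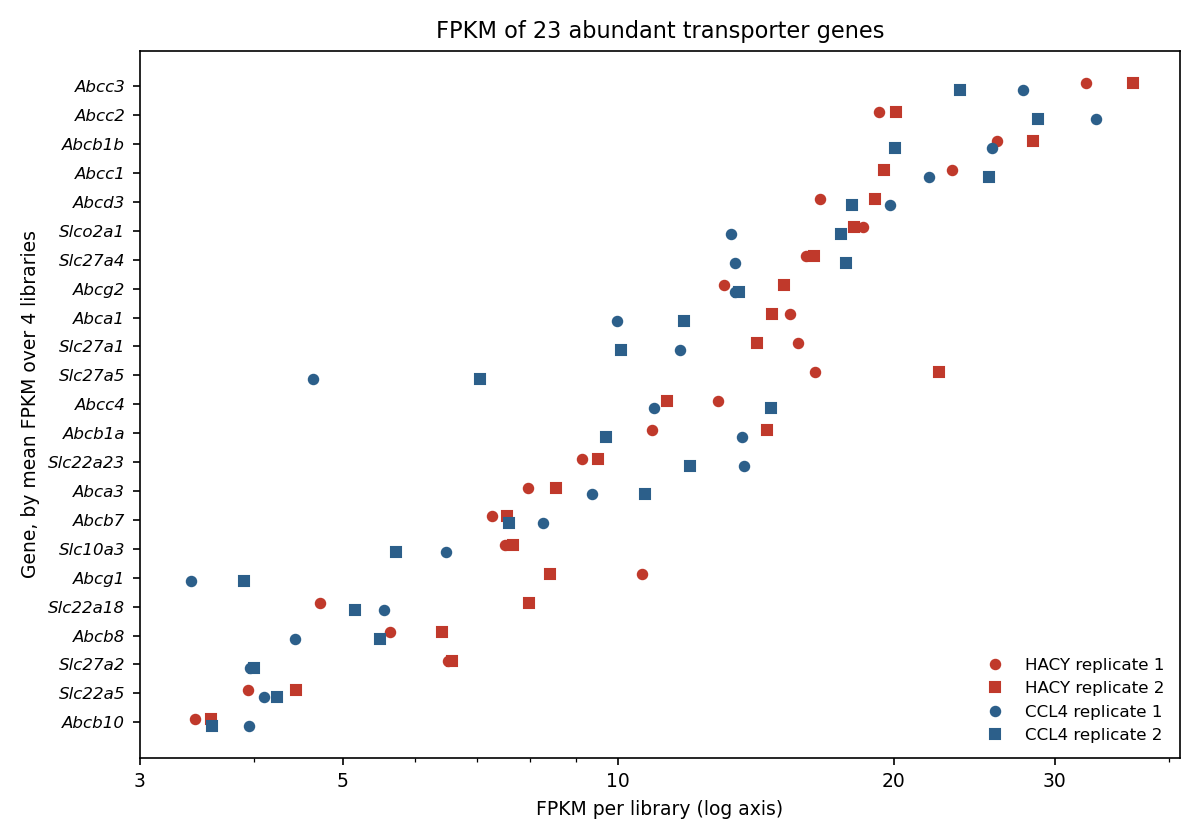
FPKM of 23 abundant transporter genes, ordered by mean level, on a log axis, with a point for each library. Abcc3 (23.6 to 36.5 FPKM) and Abcc2 (19.3 to 33.2 FPKM) have the highest means over the 4 libraries, with the HACY points to the right for Abcc3 and to the left for Abcc2.

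Cholesterol and phospholipid transporters held the clearest rises among ABC genes. Abcg1, which moves cholesterol to high-density lipoprotein and is prominent in macrophages (chromosome 17, 31057694 to 31117984), had 79.4 and 63.4 CPM in HACY and 23.6 and 25.9 in CCL4. It was 2.89-fold higher (log2 1.53, SE 0.17, edgeR adjusted p = 0.00305), and the call held without each library in turn. Abca1, which loads cholesterol onto apolipoprotein A-I (chromosome 4, 53030789 to 53159988), had 211 and 204 CPM against 127 and 152. Its rise was smaller, 1.48-fold (log2 0.57, SE 0.13, edgeR adjusted p = 0.0371), and was lost without HACY replicate 1 (0.54, adjusted p = 0.212), HACY replicate 2 (0.59, 0.152) or CCL4 replicate 1 (0.44, 0.0620), by library size alone (0.40, 0.0772) and on FPKM (0.44, 0.0796). Abcg3, a rodent relative of Abcg2 whose substrate is not settled and which the list holds by family (chromosome 5, 104935057 to 104982811), had 11.8 and 8.68 CPM against 2.43 and 2.76, 3.94-fold higher (log2 1.98, SE 0.30, edgeR adjusted p = 0.00945). Without HACY replicate 1 the value was 1.74 (adjusted p = 0.0603), and on the log2(FPKM + 1) scale it was 0.96 and still passed.

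Macrophage markers moved with these 3 genes. Of 14 tested, 13 rose and none fell, with a median of 1.61, and their summed level was 4206 and 3003 CPM in HACY and 1190 and 1604 in CCL4. HACY replicate 1 was above HACY replicate 2 in this sum and for Abcg1, Abcg3 and Abca1. That order was not particular to macrophage markers. The endothelial, stellate cell and fibroblast, neutrophil and B cell sums had it too, and the hepatocyte and cholangiocyte sums had the reverse. Nr1h3, the sterol receptor LXR alpha that activates Abca1 and Abcg1, had 70.5 and 61.0 CPM in HACY and 33.1 and 32.2 in CCL4 (log2 1.01, SE 0.15, edgeR adjusted p = 0.00782). The part of either in the values of the 3 genes was not tested.

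The other 10 of the 13 lipid transporters did not pass the test, and the list's median was -0.16. Genes named here and in the rest of this paragraph were chosen after their values were seen. Abca5, of the chromosome 11 cluster of Abca5, Abca6, Abca8a, Abca8b and Abca9 (109932206 to 110337723), had 6.34 and 7.38 CPM in HACY and 14 and 10.7 in CCL4 (log2 -0.85, edgeR adjusted p = 0.0750), and passed without CCL4 replicate 2 (-1.02, adjusted p = 0.0300) and by library size alone (-1.02, 0.0367). Its cluster neighbour Abca8b had -0.65 (adjusted p = 0.152). Abca2 had -0.34 (adjusted p = 0.249) and Abca3, a phospholipid transporter of surfactant granules, -0.16 (adjusted p = 0.439). Without CCL4 replicate 2, Abca2 passed (-0.51, adjusted p = 0.0494). Abca13 had raw counts of 2 and 4 in HACY and 10 and 54 in CCL4, and met the count rule through the CCL4 libraries alone (log2 -3.20, SE 0.97, edgeR adjusted p = 0.0766). With HACY counts near the 3-count floor, that fold is poorly set. It passed by DESeq2 (-3.24, adjusted p = 0.0364), by library size alone (-3.36, 0.0482) and without CCL4 replicate 1 (-3.94, 0.0208). Neutrophil genes summed to 302 and 250 CPM in HACY, 118 in CCL4 replicate 1 and 497 in CCL4 replicate 2, the highest library of Abca13. The 14 listed genes differed in direction, with S100a9 at 3.60 and 6.75 CPM in HACY and 11.8 and 112 in CCL4, and Itgam at 234 and 185 against 55.1 and 131. Itgam thus made up most of the neutrophil sum in both HACY libraries. The part of neutrophil RNA in the Abca13 value was not tested.

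ABC genes of organelles and channels did not pass the test in the main fit. Peroxisomal members, which import very long-chain fatty acids, had 3 positive values of 3, with 0.06 for Abcd3 (edgeR adjusted p = 0.830). Abcd3, at 16.6 to 19.8 FPKM, was the most abundant of them, and its sign turned by library size alone (-0.12) and on FPKM (-0.08). The 4 mitochondrial members, of haem and iron-sulfur metabolism, had a median of 0.18 and a highest value of 0.37. The lysosomal peptide transporter Abcb9 had 0.819 and 1.93 CPM in HACY and 3.39 and 3.89 in CCL4 (log2 -1.41, adjusted p = 0.101).

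Abcc9, a subunit of potassium channels in smooth muscle and pericytes, varied within the CCL4 group more than between groups. It had 34.0 and 28.6 CPM in HACY, 11.7 in CCL4 replicate 1 and 34.3 in CCL4 replicate 2 (log2 0.45, SE 0.44, edgeR adjusted p = 0.539). Leaving out CCL4 replicate 2 gave 1.42 (adjusted p = 0.00775), whereas leaving out CCL4 replicate 1 gave -0.13 (0.656). The summed level of stellate cell and fibroblast markers showed the same order, with 361 CPM in CCL4 replicate 1, 837 in CCL4 replicate 2 and 724 and 601 in HACY. Single genes of the list differed: Des shared the order, while Acta2 and Rgs5 did not. Acta2 had 29.2 and 16.5 CPM in HACY and 5.76 and 13.2 in CCL4, and Rgs5 had 41.9 and 46.7 against 33.3 and 41.8. The order was not particular to this list. The neutrophil sum had it too, with 118 CPM in CCL4 replicate 1, 497 in CCL4 replicate 2 and 302 and 250 in HACY. The part of either kind of cell in the Abcc9 value was not tested.

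**Figure D4:**
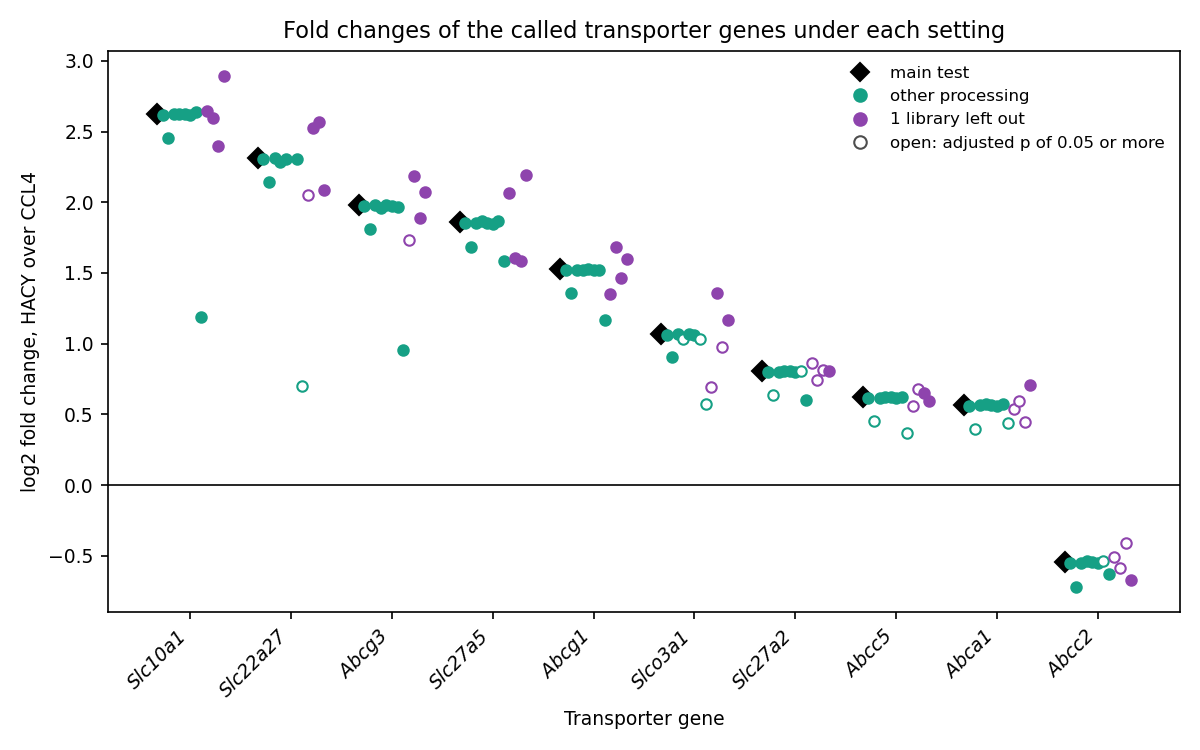
Log2 fold change of the 10 called transporter genes in the main test (diamonds), under other processing (green) and with 1 library left out (purple), with open symbols where the adjusted p was 0.05 or more. Slc10a1, Slc27a5 and Abcg1 stay filled throughout, and no gene changes sign.

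The 33 rows that carried a matching name but missed the count rule included 13 with no count in any library. Just outside the rule stood Abca17, with counts of 2 and 0 in HACY and 7 and 8 in CCL4, and Slco1a4, a sinusoidal organic anion carrier, with 10 and 6 against 2 and 3. Just inside stood Abca13 and Abca9, the latter with 15 and 11 against 14 and 19. Slco1a1, a sex-dependent carrier of mouse hepatocytes, had counts of 1 and 16 in HACY and 1 and 0 in CCL4. The kidney carriers Slc22a6, Slc22a8 and Slc22a12 had no count in any library, as had 5 other of the 11 listed kidney tubule genes. Where no read was counted, a true level of up to 3 counts (0.148 to 0.170 CPM, counting error alone) remains possible. With no filter, 87 rows entered the test, 11 were higher and 1 lower, and edgeR called 0 of the 20 rows below the count rule, of which 2 had an unadjusted p below 0.05. DESeq2 gave an adjusted p to 0 of these 20 rows. With the 60 members that had 10 or more counts in every library, the median was 0.36 for 18 uptake carriers and 0.05 for 36 ABC genes.

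Genes outside the name rule that serve the same pathway were read from lists. Of 13 tested genes of bile acid synthesis and conjugation, 4 rose and none fell, with a median of 0.38. The rises were Cyp2c70, which makes the muricholic acids of mice, from 1.77 and 3.99 to 22.6 and 25.3 CPM (log2 3.05, SE 0.37, edgeR adjusted p = 0.00389), Akr1d1, a steroid reductase of the main pathway (2.46), Akr1c6 (2.28), and Cyp7b1, of the oxysterol branch (1.46). Baat, which joins bile acids to taurine, had -1.28 (adjusted p = 0.199), and Cyp7a1, the rate-limiting enzyme of the classical pathway, was at 0.197 CPM or less in every library and was not tested. Of 16 genes that sense bile acids or xenobiotics, Nr1h3 rose and none fell (median -0.02), and the bile acid receptor Nr1h4 had 0.17 (adjusted p = 0.735). Of 16 other bile and solute transporters, 4 rose and none fell (median 0.20): the nucleoside carrier Slc28a2 (1.83), the chloride channel Cftr (2.31) and the peptide transporters Tap1 (0.72) and Tap2 (0.49), which are ABC proteins of antigen presentation under another name. Slc51a, a chain of the basolateral bile acid exporter, had no count in any library. Of 11 scaffold and trafficking genes, Msn (0.56) and Vipas39 (0.72) rose and none fell (median 0.11).

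Markers of cells that the sort could hold gave the following. Cholangiocyte and progenitor genes had 0 rises and 1 fall among 11, with a summed level of 2973 and 4276 CPM in HACY and 1226 and 2283 in CCL4, nearly all of it Spp1. Without Spp1 the list summed to 136 and 156 CPM against 143 and 175. Cd24a itself had 21.9 and 19.4 CPM against 20.7 and 38.0 (log2 -0.51, edgeR adjusted p = 0.279). Endothelial genes had 3 rises and 1 fall among 10 and sums of 1696 and 1284 CPM against 555 and 984. Neutrophil genes had 2 falls among 12, B cell genes 1 rise among 9, T and NK cell genes 1 rise among 2, and enterocyte genes 3 rises among 4. The last 2 lists had 11 and 10 rows, most of them too low to test, and 4 enterocyte genes had no count in any library. Apoa4 alone had 393 and 500 CPM of the enterocyte sum of 398 and 507 in HACY. Stellate cell and fibroblast, red cell precursor and kidney tubule genes had 0 calls among 10, 4 and 2. No hepatocyte, macrophage, cholangiocyte, endothelial or neutrophil marker found in the tables was at 0 in all 4 libraries.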

How the data were processed

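Per the labels' protocols, the sorted cells' RNA went into stranded paired-end mRNA libraries. The deposited tables give a raw read count and an FPKM per gene symbol, per the file headers, and the authors made both. Trimmomatic, HISAT2, Cufflinks, HTSeq, DESeq and the build mm10 are named without roles or versions, per the submitters' processing notes, and the strand setting of the counting is not given in the sources used here. The main test on counts was edgeR 4.0.16 (R 4.3.3): filterByExpr (minimum count 10, minimum total 15), TMM scaling, robust quasi-likelihood fit with treatment as the single term, two-sided, Benjamini-Hochberg adjustment over 13428 genes, threshold 0.05. Log2 fold changes are HACY over CCL4, with an SE computed from the F statistic. The common dispersion was 0.0272. Chi-square per degree of freedom between replicates was 19.0 (HACY) and 34.0 (CCL4), far above sampling noise.

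Members and lists were chosen with earlier results of these data known, so no set test was made. Some members enter the counts and medians but are not reported here singly. The rule for named genes takes every called member, members of the carrier, ligase, canalicular and basolateral lists, the 3 most abundant others and up to 4 genes per pathway or marker list. Abca2, Abca3, Abca5, Abca8b, Abca13, Abcb9, Abcc9, Slc10a7, Slc22a18, Slc22a26, Slc22a30 and the matching rows below the count rule were named after their values were seen. The 3-count floors cover counting error alone, while the SE also takes in the spread between libraries. Alternatives were DESeq2 1.42.0, limma 3.58.1 with voom, scaling by RLE or by library size, no filter, at least 50 counts in 2 libraries, a replicate block, limma on log2(FPKM + 1) with FPKM of at least 0.5 in 2 libraries, the 16 plasma membrane pumps as the ABC class, and each library left out. The test was checked on simulated data. In these, 50 of 13306 genes were changed at each fold, a far smaller share than the 11.7% called here, and noise followed the dispersion trend alone. The test recovered 20.4% of changes simulated at 1.5-fold, 72% at 2-fold and 92% at 4-fold, and 10 of its 152 calls were false. These rates hold for that setting and may differ in the real data. A gene that was not called may thus still differ, above all at small folds. Locations are from RefSeq GRCm38.p6, the assembly of mm10, in which all 67 members matched. Shared 50-base stretches and exon overlaps were computed from GENCODE M21.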

Additional observations from a re-analysis of the deposited data

How the results depend on the processing

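The calls of Slc10a1, Slc27a5 and Abcg1 kept their direction and side of the threshold in all 12 alternatives. Higher members numbered 5 on FPKM, 7 with the replicate block and 3 to 12 with a library left out. Lower members numbered 4 by library size, 2 by DESeq2, 1 with the replicate block and 0 to 4 with a library left out. Uptake carriers had 1 higher on FPKM (1 to 4 with a library left out) and 1 lower by library size (0 to 1). ABC genes had 2 higher by library size and 2 on FPKM (1 to 6 with a library left out), and 3 lower by library size and 2 by DESeq2 (0 to 3). The ABC median was -0.12 by library size, where all genes had -0.18. The 16 plasma membrane pumps had 3 higher, 1 lower and a median of 0.10. All genes called numbered 629 to 3047 with a library left out and 1224 with the replicate block. Fewer libraries or genes enter some of these settings, and otherwise the cause was not tested.

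Same-numbered libraries share a number alone: their deviations from the group means correlated at -0.0989. The replicate block ended the calls of Abcc2 (-0.54, adjusted p = 0.0586), Slc27a2 (0.81, 0.0715) and Slco3a1 (1.04, 0.0594) and added that of Abca13 (-3.05, 0.0493).

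Signs turned for genes that were not called, by library size for Abcb11 (-0.16), Abcc4 (-0.12), Abcd3 (-0.12), Abcg2 (-0.011), Slc22a5 (-0.068) and Slc27a4 (-0.022), and on FPKM for Abcb11 (-0.042), Abcc4 (-0.069) and Abcd3 (-0.080). With a library left out, signs also turned for Abcb11 (-0.20 to 0.26), Abcb1a (-0.049 to 0.51), Abcc1 (-0.18 to 0.056), Abcc4 (-0.13 to 0.25), Abcc9 (-0.13 to 1.42), Abcd3 (-0.064 to 0.16), Abcg2 (-0.024 to 0.32), Slc22a4 (-0.27 to 0.044) and Slc27a4 (-0.044 to 0.37). At this depth genes under about 1 CPM rest on fewer than 20 counts a library.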
